A study of Mus musculus with 14 samples.

Results

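The laminin chain genes Lama1, Lama2, Lama3, Lama4, Lama5, Lamb1, Lamb2, Lamb3 and Lamc1 were followed in kidney RNA of term and preterm mice with and without diabetes. These 9 genes were chosen by symbol and found by Ensembl ID among the 56980 genes of the deposited counts. The family was selected on counts of all 4 groups in these same libraries, in which Lama3 stood out, so the members' values, fold changes and calls are a description and carry no p-value. Lamc3, another gamma chain gene, was taken along as a comparison.

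Whole kidneys of 14 female wild-type CD-1 mice, an outbred stock, were sequenced at 18 weeks of age, with 1 library per mouse. T-ND (term, nondiabetic, n = 4) and T-D (term, diabetic, n = 4) mice were born naturally at term and stayed with their own mothers. PT-ND (preterm, nondiabetic, n = 3) and PT-D (preterm, diabetic, n = 3) mice were delivered early by Caesarean section and raised by foster mothers, which were given acepromazine in their water. T-D and PT-D mice received streptozotocin (STZ), a toxin of the insulin-producing beta cells, in low doses as young adults, and the nondiabetic mice are labelled as untreated. All mice received cationic ferritin and were perfused with saline, and the pedicle of the left kidney was clamped before formalin followed. Some PT-D mice of the study were dosed again with STZ, unlike the T-D mice, and the sources used here do not say whether they are among those sequenced. Early birth, delivery and fostering cannot be told apart in any comparison of preterm with term mice, and repeat dosing cannot be told apart from early birth in PT-D.

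Laminins are cross-shaped proteins of an alpha, a beta and a gamma chain that polymerise into a sheet and give basement membranes their cell-binding layer. In the mature glomerulus, podocytes and endothelial cells deposit a trimer of the alpha5, beta2 and gamma1 chains (Lama5, Lamb2, Lamc1), while trimers with beta1 (Lamb1) prevail in the developing glomerulus and in tubules. The alpha1 chain (Lama1) is found in tubular and mesangial matrix, alpha2 (Lama2) in mesangium and muscle, and alpha4 (Lama4) in the walls of small vessels. The alpha3 chain (Lama3) pairs with beta3 (Lamb3) in the anchoring laminin of skin and urothelium.

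Reads counted on genes ran from 16697246 to 28673176 per library, with a median of 18765582. A member's normalized counts below are its reads scaled by edgeR's TMM factors to a library of average size, and all 9 passed the filter of more than 10 reads over the 14 libraries. The lowest count of any member was 16 reads, for Lamb3 in a T-D library. In bulk tissue, fewer cells of a type and less RNA per cell cannot be told apart, which holds for every value here. The tissue labels were met by their markers: the 6 proximal tubule markers summed to 113627 or more normalized counts and the 8 podocyte markers to 5320 or more in every library.

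On GRCm39, Lama1 spans chromosome 17 from 68004223 to 68129642 and Lama2 chromosome 10 from 26856032 to 27495754.  Lama4 lies on chromosome 10 from 38841141 to 38998403 and Lama5 on chromosome 2 from 179818166 to 179867712. Lamb1 spans chromosome 12 from 31315030 to 31379658 and Lamb2 chromosome 9 from 108356935 to 108367729. Lamb3 and Lamc1 share chromosome 1, from 192890007 to 193027705 and from 153094597 to 153208774. All 9 are protein-coding. The counts were taken without regard to strand, and reads shared by overlapping genes were left uncounted. Exon overlaps with neighbours were short, the longest relative to gene length being that of Lama4 with the antisense RNA Gm67873, over 1210 bases or 7.7% of all its exon bases.

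RefSeq windows of 300 bases around the transcription start, taken from GRCm38.p6, were at hand for 5 of the 9 members, Lama2, Lama5, Lamb1, Lamb2 and Lamb3. Those of Lama5 and Lamb2 are shown because their products join in the mature glomerular laminin and both mRNAs were highest in PT-D. Only the bases before the first annotated exon are printed, each matched once and exactly to GRCm39, and capitals mark GC boxes (GGGCGG on either strand). The Lama5 stretch lies at chr2:179867713-179867902 on the minus strand and the Lamb2 stretch at chr9:108356811-108356934 on the plus strand.
Lama5: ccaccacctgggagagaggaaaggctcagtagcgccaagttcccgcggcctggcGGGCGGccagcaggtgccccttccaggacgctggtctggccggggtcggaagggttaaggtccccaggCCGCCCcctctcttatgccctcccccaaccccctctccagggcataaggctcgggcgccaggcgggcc
Lamb2: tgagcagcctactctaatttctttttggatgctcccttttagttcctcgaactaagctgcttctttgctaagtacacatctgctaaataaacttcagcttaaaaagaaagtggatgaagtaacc
The whole Lama5 window, exon bases included, is 72.7% G and C and holds 4 GC boxes, 2 of them in the printed stretch, whereas the whole Lamb2 window is 44% G and C and holds none. Lamb1 had 2 GC boxes and Lama2 had 1. A GC box was present in 35.7% of the 32851 RefSeq windows of this length. No window of the 5 members held TATAAA, found in 13.6% of all windows, or TGACTCA, found in 5.2%, on either strand.

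Lamb1 was the most abundant laminin mRNA per length in every group. Levels were set against each other as normalized counts per kb of the gene's canonical transcript. In T-ND, Lamb1 stood at 281 ± 36.7 (SD, n = 4) per kb, followed by Lamb2 at 108 ± 25, Lamc1 at 94.3 ± 19.2 and Lama5 at 82 ± 37.9. The ± SD ranges of Lamb2, Lamc1 and Lama5 overlapped. Lama3 came next among the members at 38.2 ± 16.7 per kb and Lamb3 at 32.2 ± 12.9, which also overlap. The scarce chains were Lama2 at 22.5 ± 2.98, Lama1 at 18.6 ± 11.3 and Lama4 at 13.2 ± 2.12 per kb. In PT-D, Lamb1 reached 369 ± 52.4 (n = 3) per kb and Lama5 moved up beside Lamb2 and Lamc1, at 220 ± 50 against 194 ± 47.9 and 194 ± 26.2. When all annotated exons were used as the length instead, Lama5 came before Lamb1 in PT-D and level with it in T-D, at 123 normalized counts per kb for both, so the order of these members depends on which transcript is taken.

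Lama3 was present at a similar level in 3 of the groups and nearly lost in PT-ND. The gene lies on chromosome 18 from 12466876 to 12717747, and 420 of its exon bases are shared with Gm29201, a processed pseudogene on its own strand. Its values in T-ND were 321, 295, 733 and 518 normalized counts. In T-D they were 380, 558, 512 and 413. In PT-ND the 3 mice had 46.9, 43 and 32.3 normalized counts. PT-D mice had 576, 474 and 685. Every PT-ND mouse lay far below every mouse of the other groups, while T-ND, T-D and PT-D overlapped. The PT-ND values rest on 28 to 45 reads per library, against 270 to 857 reads in the other libraries, so Lama3 mRNA was low and not absent in PT-ND.

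Lama3 averaged 467 ± 204 (SD, n = 4) for T-ND and 466 ± 83.1 (n = 4) for T-D. The PT-ND mean was 40.7 ± 7.57 (n = 3) and the PT-D mean 579 ± 106 (n = 3). Lama3 was 11.4-fold lower in PT-ND than in T-ND, a log2 fold change of −3.51 (SE 0.36). It was 14.1-fold higher in PT-D than in PT-ND, at 3.82 (SE 0.23). Between T-D and T-ND the log2 fold change was −0.02 (SE 0.27), and between PT-D and T-D it was 0.31 (SE 0.19). The difference in STZ effect between preterm and term mice, the interaction, was thus 3.82 (SE 0.41) on the log2 scale. PT-ND enters 3 of these comparisons, so that the same 3 libraries carry both large differences. Within the libraries whose names end in the suffix a, whose meaning is not given in the labels, T-ND had 295 and 321 normalized counts and PT-ND 43. Among the libraries with no suffix, T-ND had 518 and 733 and PT-ND 32.3 and 46.9. The gap was therefore present in both kinds of library.

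**Figure D1:**
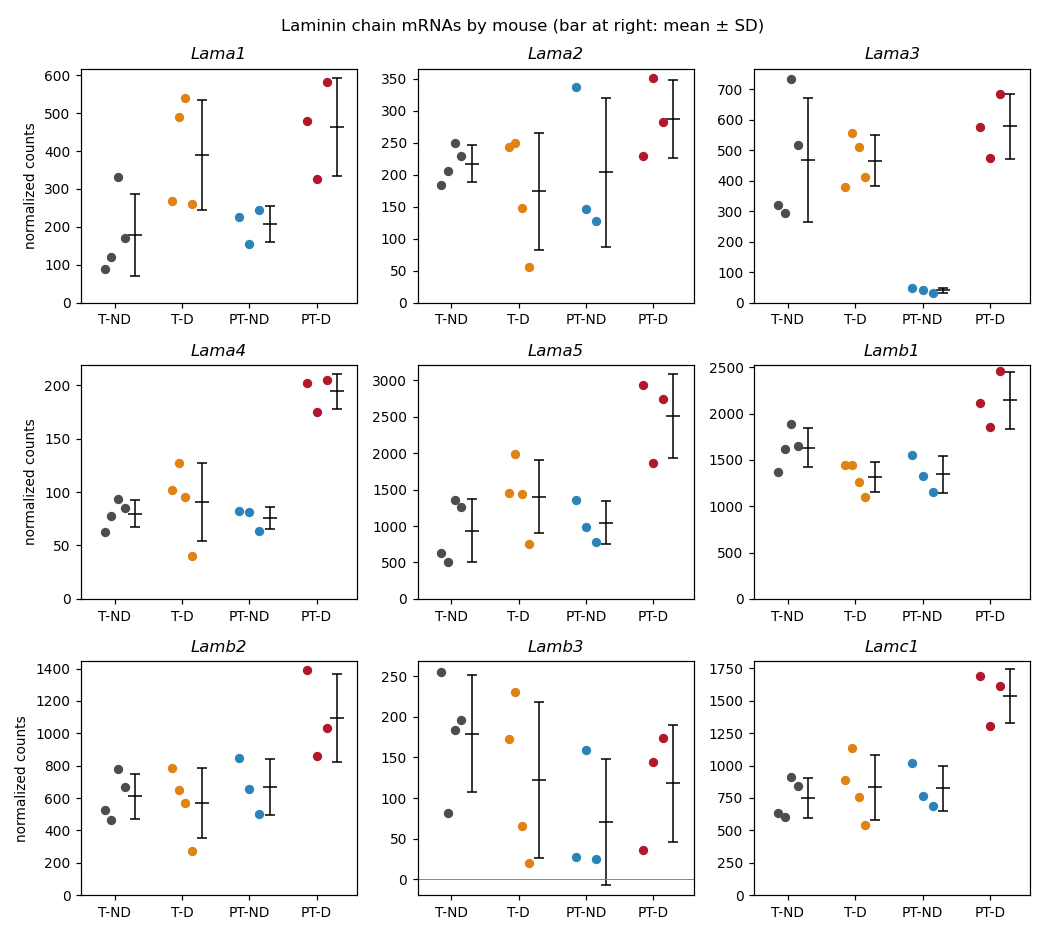
Normalized counts (vertical axes, linear) of the 9 laminin chain genes in each mouse (points) of the 4 groups (horizontal axes), with the group mean ± SD as a bar to the right of the points. Lama3 is below 47 normalized counts in all 3 PT-ND mice and at 295 or more in the other 11, whereas Lama4, Lama5, Lamb2 and Lamc1 are highest in PT-D.

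The drop changed the make-up of the alpha chain mRNAs in PT-ND. Per kb, Lama3 made up 21.7% ± 1.39 (SD, n = 4) of the 5 alpha chains in T-ND, 17.2% ± 4.89 in T-D. Its PT-D share was 12.6% ± 0.972 (n = 3). In PT-ND it made up 2.26% ± 0.324 (n = 3). Lama5 was the main alpha chain throughout, from 45.9% ± 6.07 in T-ND to 60.7% ± 3.78 in PT-ND. Lama1 held 10.2% ± 2.68 in T-ND and 17.6% ± 4.27 in T-D. Shares in PT-D differ from those in T-ND also because the other alpha chains were higher there. The sum of the alpha chains was 150 ± 39.9 normalized counts per kb in PT-ND, 174 ± 68.4 in T-ND, 235 ± 74 in T-D and 377 ± 66.3 in PT-D.

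**Figure D2:**
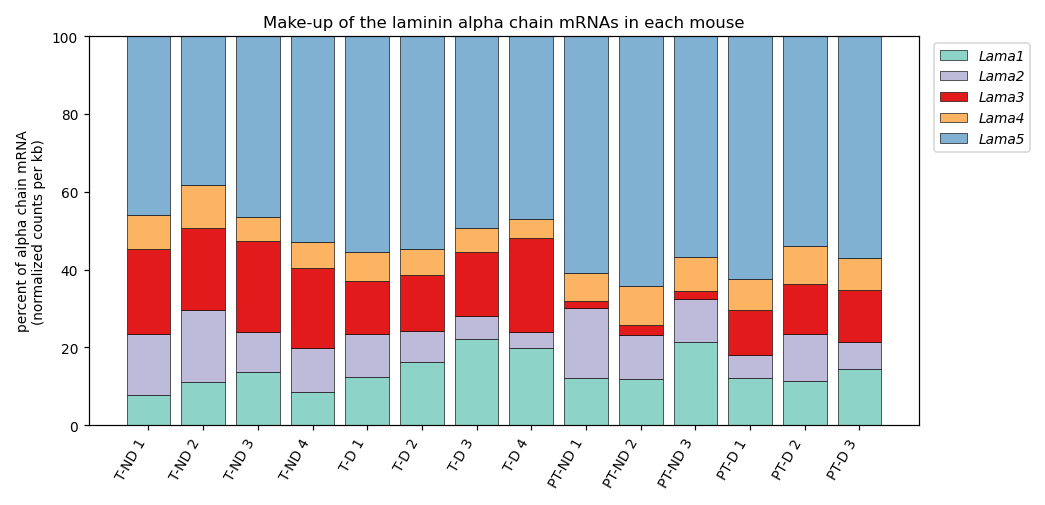
Share of each alpha chain gene (stacked bars, percent, from normalized counts per kb of canonical transcript) in each of the 14 mice (horizontal axis). Lama5 is the largest share in every mouse, and the Lama3 share shrinks to between 1.97% and 2.61% in the PT-ND mice.

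Genes that lie beside Lama3 did not share its size of change. Gm29201, inside Lama3, had 5.04 ± 1.94 normalized counts or fewer in every group. Upstream, Ankrd29 starts 27775 bases away and was at 301 ± 43.7 in T-ND, 222 ± 39.7 in T-D, 110 ± 34.4 in PT-ND and 142 ± 25.1 in PT-D. Its PT-ND and PT-D levels were alike and both below the term groups (PT-ND vs. T-ND log2 fold change −1.45, adjusted p = 0.0713 by edgeR's quasi-likelihood test). Downstream, Ttc39c averaged 815 ± 214 in T-ND and 608 ± 52.2 in PT-ND (log2 fold change −0.42, edgeR adjusted p = 0.482). These neighbours were named for their position.

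Across the 14 libraries, 12169 genes averaging 50 normalized counts or more were ranked by how closely their log2 level, with 2 counts added, followed that of Lama3. The 5 nearest, by Pearson's r over 14 libraries and as a description, were Ints9 (0.92), Cdc37l1 (0.90), Prpf4 (0.90), Reep4 (0.88) and Samtor (0.88). All 5 were lowest in PT-ND, but by far less than Lama3. Ints9 averaged 152 ± 9.91 in PT-ND and 221 ± 18.6 in T-ND, and Reep4 had 98.6 ± 20.1 and 180 ± 10.7. The points share libraries and groups, so these values give likeness of pattern and nothing on function. No other laminin chain was among these 5.

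Lamb3, the beta chain of the anchoring laminin, did not fall with Lama3 in every PT-ND mouse. It had 27.1, 159 and 25.4 normalized counts in PT-ND. In T-ND it had 255, 82.2, 183 and 197, in T-D 172, 230, 65.5 and 20.6, and in PT-D 36.5, 144 and 174. All groups overlapped. With all libraries in the fit, no comparison made it a DEG (a gene with edgeR adjusted p under 0.05 with an absolute log2 fold change over 1). The SD of Lamb3 in PT-ND, 76.9, exceeded its mean of 70.7.

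Urothelial RNA varied between libraries. The 5 uroplakins, which coat the urothelium, summed to 99.1, 897 and 496 normalized counts in PT-ND and to 48.3, 396 and 230 in PT-D. In the term libraries they summed to between 435 and 1200. PT-ND replicate 2 had more uroplakin mRNA than 2 of the 4 T-ND mice while its Lama3 was 43, and PT-D replicate 1 had the least uroplakin mRNA of all with Lama3 at 576. Lamb3 was low in PT-ND replicate 1 and PT-D replicate 1, at 27.1 and 36.5, but lower still in PT-ND replicate 3 and T-D replicate 4, at 25.4 and 20.6 beside uroplakin sums of 496 and 749. All 5 uroplakins were detected in the series. The list of 10 parietal and urothelial markers had no DEG by edgeR in any comparison. In PT-D vs. T-ND, 5 had an unadjusted p under 0.05 by edgeR, as did 5412 of all 22310 genes. DESeq2 called 2 there, against 4.32% of all genes. In PT-D vs. T-D, 5 had an unadjusted p under 0.05 by edgeR, as did 4971 of all 22294 genes. DESeq2 called 3 there, against 2.96% of all genes. The summed level of the list was 2294 to 3913 in PT-ND, 2609 to 3464 in PT-D, 3809 to 4669 in T-ND and 3530 to 4464 in T-D.

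**Figure D3:**
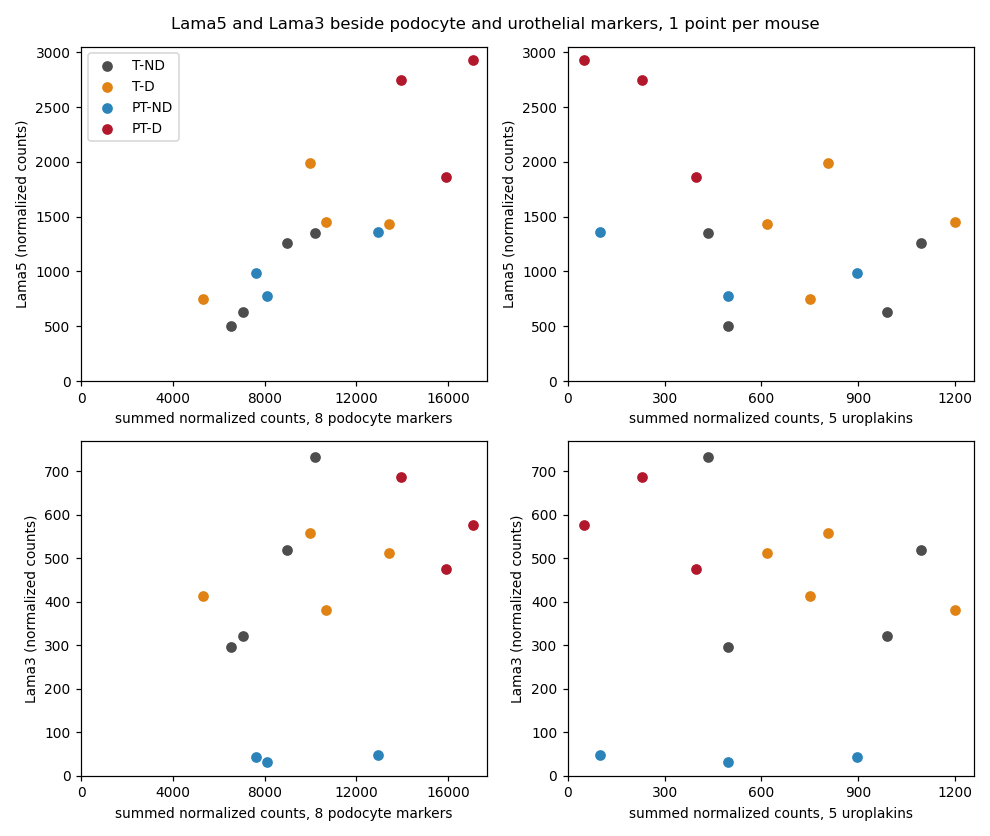
Lama5 (top) and Lama3 (bottom) in normalized counts against the summed normalized counts of 8 podocyte markers (left) and 5 uroplakins (right), 1 point per mouse, coloured by group. The 3 PT-ND mice keep Lama3 below 47 while their uroplakin sums run from 99.1 to 897, and the PT-D mice are highest for both Lama5 and the podocyte sum but for Lama5 in 1 of them, which lies below a T-D mouse.

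The chains of the mature glomerular laminin were highest in PT-D. Lama5 had 2932, 1860 and 2746 normalized counts in PT-D. The PT-ND mice had 1362, 991 and 778, the T-D mice 1450, 1986, 1437 and 749, and the T-ND mice 634, 501, 1354 and 1264. PT-D lay above PT-ND and T-ND without overlap, and 1 T-D mouse reached into the PT-D range. The log2 fold change was 1.27 (SE 0.23) against PT-ND, 0.84 (SE 0.28) against T-D and 1.42 (SE 0.33) against T-ND.

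Lamb2, the beta chain of that trimer, had 1390, 861 and 1030 normalized counts in PT-D. It had 848, 654 and 502 in PT-ND, 783, 650, 569 and 272 in T-D, and 525, 467, 778 and 669 in T-ND. All 3 PT-D mice were above all others, although the lowest PT-D value and the highest PT-ND value were close. The log2 fold change was 0.71 (SE 0.22) against PT-ND, 0.94 (SE 0.30) against T-D and 0.84 (SE 0.21) against T-ND, each below the limit of 1.

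Lamc1, the gamma chain shared by most laminins, had 1695, 1302 and 1617 normalized counts in PT-D. The other groups had 1019, 766 and 688 (PT-ND), 888, 1136, 758 and 542 (T-D) and 636, 603, 913 and 842 (T-ND). PT-D did not overlap any group. Its log2 fold change was 1.03 (SE 0.17) against T-ND, 0.90 (SE 0.18) against PT-ND and 0.89 (SE 0.23) against T-D.

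Lamb1, the beta chain of immature and tubular basement membranes, had 2114, 1854 and 2460 normalized counts in PT-D. It had 1558, 1324 and 1158 in PT-ND and 1450, 1442, 1261 and 1106 in T-D. T-ND mice had 1370, 1618, 1891 and 1649. PT-D was above both PT-ND and T-D in all mice, and 1 T-ND mouse lay above the lowest PT-D mouse. The log2 fold change was 0.67 (SE 0.17) against PT-ND, 0.70 (SE 0.17) against T-D and 0.38 (SE 0.15) against T-ND. The ratio of Lamb1 to Lamb2 per kb was 2.67 ± 0.476 (SD, n = 4) in T-ND, 2.52 ± 0.974 in T-D, 2.00 ± 0.23 (n = 3) in PT-ND and 1.96 ± 0.436 in PT-D. Every T-ND mouse, at 2.36 or more, lay above every PT-ND and PT-D mouse, at 2.32 or less, while the T-D range of 1.80 to 3.96 overlapped all groups.

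Lama4, the alpha chain of small vessels, was scarce and separated PT-D most cleanly. Its values in PT-D were 202, 175 and 205 normalized counts. They were 82.4, 81.4 and 63.5 in PT-ND, 102, 127, 95.3 and 39.9 in T-D, and 63, 77.6, 93.2 and 84.9 in T-ND. The lowest PT-D mouse stood above the highest mouse of any other group. The PT-D mean of 194 ± 16.4 (SD, n = 3) compares with 75.8 ± 10.7 for PT-ND (n = 3), 91 ± 36.6 for T-D (n = 4) and 79.7 ± 12.8 for T-ND (n = 4). Lama4 was 2.56-fold higher in PT-D than in PT-ND (log2 fold change 1.36, SE 0.24) and 2.42-fold higher than in T-ND (1.27, SE 0.20). Against T-D the log2 fold change was 1.09 (SE 0.33), without a call.

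Lama1, the alpha chain of tubular matrix, was the member that differed most between T-D and T-ND. It had 89.1, 121, 332 and 170 normalized counts in T-ND and 268, 490, 539 and 261 in T-D. PT-ND mice had 226, 154 and 245, and PT-D mice 479, 327 and 583. T-ND replicate 3 lay within the T-D range, and PT-D and PT-ND did not overlap. The log2 fold change was 1.11 (SE 0.38) for T-D vs. T-ND and 1.15 (SE 0.25) for PT-D vs. PT-ND. The interaction of Lama1 was 0.02 (SE 0.54), with a standard error wide enough to hide a sizable difference.

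Lama2, the alpha chain of mesangium and muscle, showed no separation. It had 230, 351 and 282 normalized counts in PT-D, 338, 146 and 127 in PT-ND, 243, 250, 148 and 55.3 in T-D, and 184, 206, 250 and 230 in T-ND. Every pair of groups overlapped. Its log2 fold changes ran from −0.33 (SE 0.37) for T-D vs. T-ND to 0.72 (SE 0.39) for PT-D vs. T-D.

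**Figure D4:**
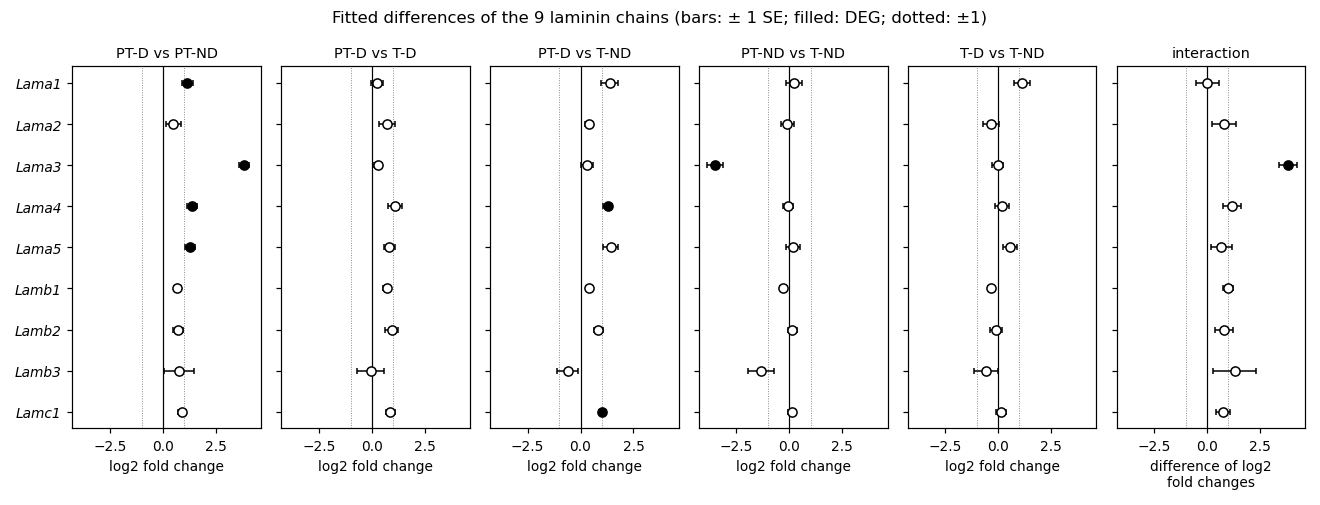
Log2 fold changes (horizontal axes; points with ± 1 SE) of the 9 laminin chains (rows) for 5 group pairs plus the interaction, with DEGs as filled points and dotted lines at −1 and 1. The Lama3 points lie at 3.82 in PT-D vs. PT-ND, −3.51 in PT-ND vs. T-ND and 3.82 in the interaction, far outside those of the other members.

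The effect of diabetes after preterm birth was asked by PT-D vs. PT-ND, in which all 9 members had a log2 fold change above 0 and 4 were DEGs by edgeR, Lama1, Lama3, Lama4 and Lama5, all higher. Of all 22303 genes tested, 4.95% were DEGs, and the median log2 fold change was 0.90 over the members and 0.05 over all genes. Lamb1 and Lamc1 met the adjusted p limit with a log2 fold change under 1. In 7 of the 9 members every PT-D mouse was above every PT-ND mouse. The share of all genes that separate in this way was not counted, here or in the comparisons below. By edgeR, 6493 of the 22303 genes had an unadjusted p under 0.05. Lama3, Lama4 and Lama5 stayed DEGs with any 1 library left out, with log2 fold changes of at least 3.68, 1.25 and 1.10. Lama1 was not a DEG without PT-ND replicate 2 (log2 fold change 0.97) or without PT-D replicate 3 (0.95). Lama2 became a DEG at 1.06 without PT-ND replicate 1, and Lamc1 did so without that library, at 1.07, or without PT-D replicate 2. In the libraries with no suffix alone, the log2 fold change was 3.86 for Lama3, which was called, and 1.11 for Lama5, which was not. Lama4 was called in all 10 alternative runs, this one included. Lamb3 was called in 1 of these runs, and its largest log2 fold change over them was 2.59. Among the libraries with no suffix, Lamb3 averaged 26.3 normalized counts in PT-ND (n = 2) and 159 in PT-D (n = 2).

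The combined exposure was asked by PT-D vs. T-ND, where 2 members were DEGs by edgeR, Lama4 and Lamc1, both higher, against 1.45% of all genes tested. The median log2 fold change was 0.84 over the members and 0.03 over all genes, and 8 of 9 were above 0, with Lamb3 at −0.61 (SE 0.50). Every PT-D mouse was above every T-ND mouse in 4 members, Lama4, Lama5, Lamb2 and Lamc1. Of the 22310 genes tested, 5412 had an unadjusted p under 0.05 by edgeR. DESeq2 called 4 members, adding Lama1 and Lama5, against 4.32% of all genes. Without T-ND replicate 3, edgeR called Lama1 and Lama5 as well, at 1.86 and 1.64. The edgeR calls of Lama4 and Lamc1 depended on single libraries. Lama4 was no DEG without T-ND replicate 1, 2 or 4 or without PT-D replicate 2 or 3, with a log2 fold change from 1.18 to 1.35 over all omissions. Lamc1 was no DEG when any library except T-ND replicate 3 was left out, with log2 fold changes from 0.94 to 1.14. In T-ND, 8 of the 9 members, all but Lamb3, were lower in both replicates 1 and 2 than in both 3 and 4, and the former carry the library name suffix a. Lama5 had 501 and 634 normalized counts with the suffix and 1264 and 1354 without it. With the libraries without that suffix alone, a set chosen after seeing the data that leaves 2 mice a group, the log2 fold change of Lama5 was 0.80 and that of Lamc1 0.72, and no member was a DEG.

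The effect of preterm birth among diabetic mice was asked by PT-D vs. T-D. No member was a DEG by edgeR, against 0.193% of all genes. DESeq2 called 1, Lama4, against 2.96% of all genes. By edgeR, 5 members had an unadjusted p under 0.05, as did 4971 of all 22294 genes. The median log2 fold change was 0.72 over the members and 0.06 over all genes, and 8 of 9 were above 0. In 4 members, Lama4, Lamb1, Lamb2 and Lamc1, every PT-D mouse was above every T-D mouse.

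The effect of preterm birth without diabetes was asked by PT-ND vs. T-ND. Lama3 was the only member called, lower in PT-ND, where 0.0809% of all genes were DEGs. The median log2 fold change was −0.07 over the members and near 0 over all genes, and 4 of 9 members were above 0. Without PT-ND replicate 2 or 3, Lama3 missed the adjusted p limit, although its log2 fold change stayed between −3.68 and −3.22 over all omissions. The other members' groups overlapped in this comparison.

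The effect of diabetes in term mice was asked by T-D vs. T-ND. No member was a DEG by edgeR or DESeq2, against 0.0673% of all genes by edgeR. Lama1 alone had an unadjusted p under 0.05 by edgeR, as did 2621 of all 22275 genes. Without T-ND replicate 3, Lama1 was called at a log2 fold change of 1.62. The members' median was −0.02, as for all genes.

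The difference of the STZ effects was fitted on all 14 libraries. All 9 members had an interaction above 0, with a median of 0.82 on the log2 scale against 0.07 over all genes. Lama3 was the only DEG by edgeR, and 4.45% of all genes were DEGs. DESeq2 called Lama4 as well, and 7.38% of all genes. Lamb1, at 0.98 (SE 0.22), met the adjusted p limit and became a DEG, at 1.03 to 1.11, without T-ND replicate 1, T-D replicate 1 or 2, PT-ND replicate 1 or PT-D replicate 2. All of these comparisons share groups, so a high PT-D or a low PT-ND library enters several of them.

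Receptors and partners of the laminins were read from lists that were written with earlier results of these data known. Among 10 laminin receptors, 2 were DEGs in PT-D vs. PT-ND, both higher, where 4.95% of all genes were DEGs. The list median was 0.41. Itga3, the alpha subunit of the main podocyte laminin receptor, had a log2 fold change of 1.23 (SE 0.17, edgeR adjusted p = 0.00344), from 721 ± 136 (SD, n = 3) to 1692 ± 96.8 normalized counts. Itga2, a collagen and laminin receptor subunit, had 1.52 (SE 0.30, edgeR adjusted p = 0.0112). In PT-D vs. T-ND Itga3 alone of the list was a DEG, at 1.07 (SE 0.20, edgeR adjusted p = 0.0302), against 1.45% of all genes. There 8 of the 10 receptors had a log2 fold change above 0. Bcam, named after its values were seen, was lower in every PT-D than in every T-ND mouse (log2 fold change −0.45, SE 0.12, edgeR adjusted p = 0.0682).

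Among 14 basement membrane partners, 3 rose in PT-D vs. PT-ND, where 4.95% of all genes were DEGs, with a list median of 0.69. In PT-D vs. T-ND 5 of them rose, where 1.45% of all genes were DEGs, with a median of 0.86. None fell past the threshold, although Smoc2, named after its values were seen, was lower in every PT-D than in every PT-ND mouse (log2 fold change −1.15, SE 0.34, edgeR adjusted p = 0.0513). Col4a1 and Col4a2, which encode the widespread type IV collagen chains, were in both sets. Col4a2 had a log2 fold change of 1.34 (SE 0.21, edgeR adjusted p = 0.00508) against PT-ND and 1.45 (SE 0.28, edgeR adjusted p = 0.0327) against T-ND. Agrn, a heparan sulfate proteoglycan that binds laminin, had 1.11 (SE 0.17, edgeR adjusted p = 0.00522) against PT-ND. Against T-ND, Nid1, which links laminin to type IV collagen, had 1.03 (SE 0.14, edgeR adjusted p = 0.0182) and Col15a1 1.06 (SE 0.21, edgeR adjusted p = 0.034). The fifth, Hspg2 (perlecan), had 1.17 (SE 0.26, edgeR adjusted p = 0.0484) and was named after its values were seen. Col4a3 and Col4a4, chains of the mature glomerular network, had log2 fold changes of 0.36 and 0.22 against PT-ND and were also named after their values were seen. In PT-D vs. T-D neither list had a DEG by edgeR or DESeq2. By edgeR, 4 of the 10 receptors and 8 of the 14 partners had an unadjusted p under 0.05, as did 4971 of all 22294 genes.

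Of the 4 hemidesmosome and anchoring genes, Plec (plectin) alone was a DEG in PT-D vs. PT-ND, at 1.30 (SE 0.19, edgeR adjusted p = 0.0041), against 4.95% of all genes. Col7a1, the collagen of anchoring fibrils, had a larger log2 fold change of 1.56 (SE 0.47) with every PT-D mouse above every PT-ND mouse, and just missed the threshold (edgeR adjusted p = 0.0505). Col17a1, a hemidesmosome collagen that binds the alpha3 laminin in skin, had a log2 fold change of −1.02 (SE 0.92, edgeR adjusted p = 0.508). Both collagens were named after their values were seen. Of the 6 netrins, secreted relatives of the laminin arms, 5 were tested, with Ntn5 below the filter, and none was a DEG by edgeR in any comparison. At most 2 of them had an unadjusted p under 0.05 by edgeR in a comparison, a limit met by 2379 to 6493 of all genes tested. DESeq2 called 1, in PT-D vs. T-ND, where it called 4.32% of all genes. Lamc3, which encodes the gamma3 chain, had 164.7 to 239 normalized counts in PT-D, 136 to 315 in PT-ND, 60.5 to 255 in T-D and 178 to 234 in T-ND. All pairs of groups overlapped.

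**Figure D5:**
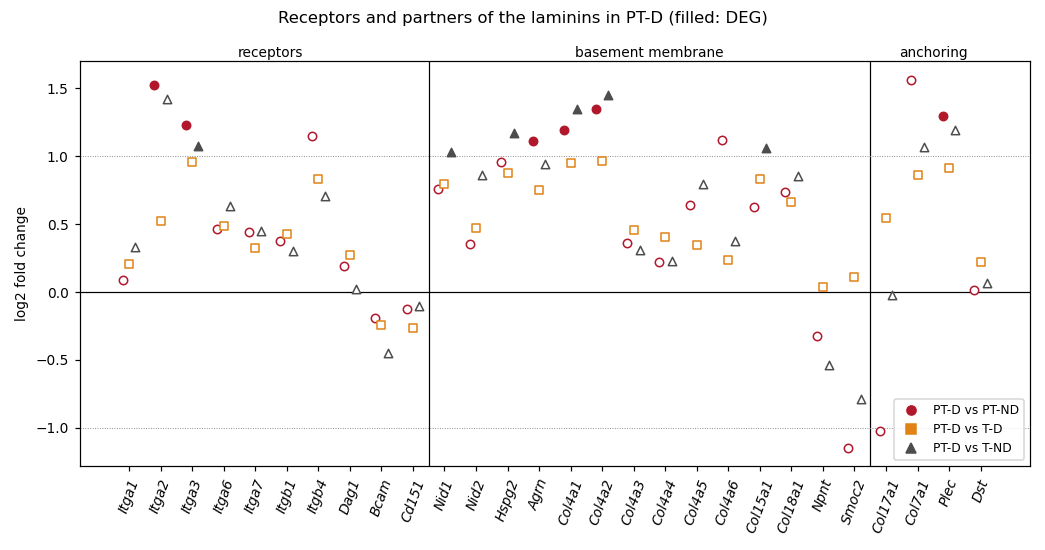
Log2 fold changes (vertical axis) of 10 laminin receptors, 14 basement membrane partners and 4 anchoring genes (horizontal axis) in PT-D against each other group, with DEGs filled and dotted lines at −1 and 1. Itga3, Col4a1 and Col4a2 are filled in both PT-D vs. PT-ND and PT-D vs. T-ND, and no point of PT-D vs. T-D is filled.

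Podocyte markers, and some markers of other cells, were higher in PT-D beside the higher laminin levels, and their part in the result was not tested. The 8 podocyte markers summed to 13947 to 17094 normalized counts in PT-D, 7630 to 12936 in PT-ND, 5320 to 13421 in T-D and 6550 to 10209 in T-ND. By histology of the study's females, the paper reports fewer podocytes per glomerular volume (podocyte density) in PT-D than in PT-ND. It found no difference from T-D or T-ND. By edgeR, 2 of the 8 markers were DEGs in PT-D vs. PT-ND, Synpo and Nphs1, against 4.95% of all genes. In PT-D vs. T-ND 4 of the 8 were, Ptpro, Wt1 and Synpo among them, against 1.45% of all genes. All of these were higher in PT-D. The 10 endothelial markers summed to 10753 to 13997 in PT-D and 7305 to 11841 in PT-ND, with overlap. They summed to 5483 to 9859 in T-D and 8887 to 10162 in T-ND, below every PT-D mouse. In PT-D vs. PT-ND, Cdh5, Egfl7 and Kdr of these 10 were DEGs, all higher in PT-D, 7 had a log2 fold change above 0, and the list median was 0.34. In PT-D vs. T-ND, Cdh5 alone was a DEG, at 1.55 (SE 0.23, edgeR adjusted p = 0.0203). Means of Emcn, Tek and Plvap, named after their values were seen, were lower in PT-D than in PT-ND, at 1129 against 1377, 409 against 510 and 2989 against 3304 normalized counts, with overlapping ranges. T-D replicate 4, which had the lowest Lama1, Lama2, Lama4, Lama5, Lamb1, Lamb2, Lamb3 and Lamc1 of the T-D mice, also had the lowest podocyte and endothelial sums of the series. Sums of the 8 mesangial, pericyte and fibroblast markers were 2630 to 6004 in PT-D and 2649 to 4616 in PT-ND. Pdgfrb was a DEG between these groups, higher in PT-D, but 4 of the 8 had a log2 fold change above 0 and the list median was 0.09. The 9 injured tubule markers summed to 62785 to 72280 in PT-D, 46546 to 81100 in T-D, 40130 to 43263 in PT-ND and 35605 to 51175 in T-ND, so the sum separated the diabetic from the nondiabetic preterm mice. Most of this sum was Spp1, at 52094 ± 2201 (SD, n = 3) in PT-D and 32601 ± 2203 (n = 3) in PT-ND. Krt8 averaged 2595 and 2553. Both genes were named after their values were seen, and 8 of the 9 markers had a log2 fold change above 0 between these groups. Lcn2, Havcr1 and Krt20 were DEGs in PT-D vs. PT-ND, all higher. Havcr1 overlapped between these groups and averaged 1003 ± 797 normalized counts in PT-D (SD, n = 3) and 1619 ± 1199 in T-ND (n = 4). Vcam1 of the same list averaged 1721 ± 316 in PT-D and 2519 ± 741 in PT-ND, and its interaction was a DEG at −1.51 (SE 0.40, edgeR adjusted p = 0.0393). The interaction of Havcr1 was a DEG in the other direction, at 7.18 (SE 1.37, edgeR adjusted p = 0.0187). Interactions of Egfl7, Kdr and Pdgfrb were DEGs above 0 as well, at 2.16 (SE 0.39), 1.83 (SE 0.47) and 1.51 (SE 0.43).

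Adipocyte marker sums ran from 0.912 to 1351 normalized counts and overlapped between all groups. The blood cell list, which holds haemoglobin genes, ran from 346 to 20132, with Hba-a2 at 0 in every library. Its leukocyte marker Ptprc was higher in every PT-D mouse than in every T-ND mouse, with a log2 fold change of 1.10 (SE 0.23, edgeR adjusted p = 0.0401), and its part in the laminin result was not tested. The smooth muscle markers summed to 996 to 1854 in PT-D and 982 to 1097 in PT-ND, with Myh11 called between them. Loop and distal tubule markers summed to 34758 to 79852 in PT-D and 70419 to 83980 in T-ND, and Umod was a DEG, lower in PT-D. The 6 collecting duct markers summed to 5126 to 11705 in PT-D and 9375 to 17231 in PT-ND, without a DEG by edgeR. In that comparison, 2 of the 6 had an unadjusted p under 0.05 by edgeR, as did 6493 of all 22303 genes. DESeq2 called 1 of them, against 6.1% of all genes. Against these lists, the 9 laminins summed to 7350 to 9782 normalized counts in PT-D and to 6868 or less in every other mouse.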

How the data were processed

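Per the labels and the methods of the study, mRNA of whole kidneys was made into unstranded libraries, and reads were trimmed and aligned to GRCm39 with STAR. The authors deposited raw read counts per gene, without normalization, and the unstranded counts were used. Counts by strand were not used. Reads on more than 1 gene, 6.86% to 8.09% of uniquely mapped reads, had been left uncounted. Of 56980 IDs, 56236 matched GENCODE release 39 without version, which gave symbols, lengths and positions.

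The members and lists were chosen with earlier results of these data known. A total above 10 counts across the 14 libraries was required, met by 22339 genes. For every group pair, only that pair's libraries were fitted, with edgeR 4.0.16 in R 4.3.3 (TMM, quasi-likelihood test, two-sided, Benjamini-Hochberg adjustment over all genes), and the interaction on all 14. DEGs needed an adjusted p-value under 0.05 and an absolute log2 fold change above 1. SE is the log2 fold change divided by the square root of F. The procedure was tested on simulated data. Named were the 9 members, Lamc3, DEGs of the partner lists (4 at most per list and comparison), up to 3 DEGs per marker list, and the 5 genes most like Lama3. A result for 1 further gene is not reported here. Replicates were separate mice. Alternatives were DESeq2 1.42.0, other normalizations and filters, a joint fit, the library-name suffix, a replicate block and each library left out.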

Additional observations from a re-analysis of the deposited data

Results flagged for a closer look

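Lama3 differed between preterm and term mice in its response to STZ, by the interaction fitted in edgeR over all 14 libraries. The difference was 3.82 on the log2 scale (SE 0.41), made of a log2 fold change of 3.82 in preterm mice and −0.02 in term mice. It was called with each of the 14 libraries left out in turn and lay between 3.52 and 3.99. As Lama3 was chosen on these counts, this is a description.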

How the results depend on the processing

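The numbers of laminin chain DEGs moved with the tool, the filter and single libraries. In PT-D vs. T-ND, 2 members were called, against 4 with DESeq2 or with no filter on low counts, 1 with a replicate block and 0 with the libraries with no name suffix alone, a set chosen after seeing the data. In PT-D vs. T-D, 0 were called, against 1 with DESeq2, with no filter or in a joint fit of all libraries. In PT-ND vs. T-ND, 1 was called, against 2 with the libraries with no name suffix, where Lamb3 joined Lama3. The interaction had 1, against 2 with DESeq2 or with the adjusted p alone. Leaving out 1 library gave 0 to 4 in PT-D vs. T-ND, 0 to 1 in T-D vs. T-ND, 0 to 1 in PT-ND vs. T-ND and 1 to 2 in the interaction. The cause was not tested beyond the smaller number of libraries in these fits. Replicate numbers did not pair the mice: same-numbered libraries of different groups had correlations of their deviations from −0.281 to 0.308, above 0.1 in 2 of 16 pairs. The replicate block called 4 members in PT-D vs. PT-ND, as reported. In that comparison, Lama1 was called in 4 of the 6 fits with 1 library left out, Lama2 in 1 and Lamc1 in 2. Of the 10 other alternatives, 8 called Lama1 and 9 called Lama5. Lamb1, Lamb3 and Lamc1 were each called in 1 of them. No called member changed sign under any alternative run, and Lama3 stayed above 3.68 in PT-D vs. PT-ND. Depth limited Lama3 in PT-ND and Lamb3 in single libraries, at 16 to 45 reads.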
